A study of Mus musculus with 9 samples.

Results

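The phagocyte NADPH oxidase was examined through 9 genes that encode its subunits and partners, Cybb, Cyba, Ncf1, Ncf4, Rac1, Rac2, Hvcn1, Cybc1 and Rap1a. They were taken by symbol from a table of 7197 genes, and all 9 were present. Neutrophils carrying CD45, CD11b and Ly6G were sorted from the bone marrow of mice aged 2 months, and their polyadenylated RNA was read from the 3′ end in 9 libraries. Of these, 5 came from Rragc+/+ mice and 4 from RragcS74N/+ mice. The latter carry 1 knock-in allele of Rragc, made by CRISPR editing of the germline, in every cell of the body. That allele encodes a serine-to-asparagine form of RagC, a Rag GTPase that signals nutrient sufficiency to mTORC1, and it is an activating one. The study asked whether such neutrophils differ intrinsically from Rragc+/+ neutrophils, including in their production of reactive oxygen species, and the values below are of RNA alone. Gene counts do not show the edited codon, so the genotype labels could not be checked from these values.

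The oxidase moves electrons from cytosolic NADPH across a membrane to oxygen and so makes superoxide, the first product of the respiratory burst with which neutrophils kill microbes. Its catalytic core, flavocytochrome b558, joins gp91phox (Cybb) and p22phox (Cyba) in the membrane. On stimulation cytosolic subunits, among them p47phox (Ncf1) and p40phox (Ncf4), move to this core together with a GTP-bound Rac protein, which is mainly Rac2 in neutrophils. A proton channel (Hvcn1) balances the charge that leaves with the electrons, the chaperone Eros (Cybc1) is needed for gp91phox and p22phox to accumulate, and the small GTPase Rap1A (Rap1a) was found attached to the flavocytochrome. Loss of the core or cytosolic subunits causes chronic granulomatous disease.

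Recovered reads ran from 1214295 to 1973957 per library. Rragc+/+ replicate 2 stood apart, with a mean Spearman correlation with the others of 0.901 against 0.935 to 0.954 for the rest. The sorting markers Ptprc, Itgam and Ly6g summed to 4963 to 5838 normalized counts in Rragc+/+ and 4972 to 6159 in RragcS74N/+, with log2 changes of -0.16, -0.09 and 0.05 (limma, adjusted p = 0.781, 0.864 and 0.950). All 9 mature neutrophil markers were listed. Of markers of other cells, 7 of 8 erythroid genes were listed and summed to 1091 to 5609 in Rragc+/+ and 379 to 2158 in RragcS74N/+. Of 10 eosinophil and basophil genes 6 were listed, at 126 to 452 and 126 to 632, with 5 of the 6 estimates higher in RragcS74N/+, a median log2 change of 0.85, and 1 at an unadjusted limma p-value under 0.05 (higher). Of 8 monocyte and macrophage genes 3 were listed (Csf1r, Ly6c2 and Adgre1), summing to 2242 to 3472 and 2264 to 4027, and Ccr2, Cx3cr1 and F13a1 were not. One gene each was listed for B cells (Ighm, 87.6 to 140.3 and 83.5 to 123) and for T and NK cells (Cd3d, 14.5 to 28.9 and 14.6 to 18.8), and 0 of 5 for platelets. Granule-forming neutrophil genes (6 of 6) summed to 22872 to 31263 and 18848 to 32775, and Mki67 and Top2a, the 2 of 5 precursor genes listed, to 154 to 349 and 186 to 279. Of 6 erythroid genes tested, 5 had an unadjusted limma p-value under 0.05, all lower in RragcS74N/+, and 0 passed after adjustment. The part of other cells in the member values was not tested.

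No member differed between genotypes beyond the spread of the libraries. In limma on log2(normalized count + 1), 0 of the 9 passed a Benjamini-Hochberg adjusted p-value of 0.05 over the 6673 genes tested, beside 0% of all genes. Without adjustment, 0 members had a limma p-value under 0.05, against 5.81% of all genes (3.81% lower and 2.01% higher in RragcS74N/+). edgeR and DESeq2 on whole reads called 0 members after adjustment. At an unadjusted p-value under 0.05 they had 0 and 1 members, beside 467 and 447 of all 6673 genes. The genotypes overlapped for each of the 9, where 1.69% of all genes did not overlap. Of the 9 log2 changes, 6 were below 0, with a median of -0.07, while 46.6% of all genes lay below 0 and their median was 0.02. Without RragcS74N/+ replicate 1 the median of the 9 was 0.01, with 4 below 0, and the median of all genes was 0.01. In sorted bulk cells, a lower value from fewer cells of a type and from less RNA per cell cannot be told apart.

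The upstream sequences of the flavocytochrome pair are shown because these genes encode partners of 1 complex, and their 3′ GC content lay toward opposite ends of the table. Each line gives the 250 bases before the RefSeq start site, 5′ to 3′ on the minus strand of GRCm38.p6. Cybb lies at chrX:9469325-9469574 and Cyba at chr8:122432941-122433190. Capitals mark CCAAT, searched on both strands (CCAAT or ATTGG).
Cybb: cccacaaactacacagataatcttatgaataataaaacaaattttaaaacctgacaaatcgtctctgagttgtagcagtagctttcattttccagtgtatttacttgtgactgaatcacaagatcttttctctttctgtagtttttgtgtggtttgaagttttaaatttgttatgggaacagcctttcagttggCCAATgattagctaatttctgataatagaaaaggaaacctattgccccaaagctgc
Cyba: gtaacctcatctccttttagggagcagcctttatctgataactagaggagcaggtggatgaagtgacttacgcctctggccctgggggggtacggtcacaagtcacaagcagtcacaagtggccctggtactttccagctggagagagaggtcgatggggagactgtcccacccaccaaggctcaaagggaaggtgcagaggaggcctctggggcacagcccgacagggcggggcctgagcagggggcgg
CCAAT began 56 bases before the Cybb start and was not in the Cyba window, and 33.8% of 32851 promoter entries hold it. A second search, for GAGGAA or TTCCTC, 1 form of the site that factors of the PU.1 type read, matched neither window. Of all entries 23.3% held it. Shorter forms of that site were not searched, so its absence does not show that such factors have no site there. G and C made up 34.0% of the Cybb window and 60.0% of the Cyba window. Promoter entries were matched for 4 of the 9 members, these and Ncf1 and Cybc1.

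Neither subunit of the membrane core differed between genotypes beyond the spread of the libraries. Cybb, the electron-carrying subunit, measured 2118, 3049, 2796, 2637 and 2310.0 normalized counts in the Rragc+/+ libraries, replicates 1 to 5. It measured 2697, 2160.4, 2485 and 2073 normalized counts in RragcS74N/+ replicates 1 to 4. Of the latter, 3 lay inside the Rragc+/+ range and replicate 4 just below its lowest library. The means were 2582 ± 373 (SD, n = 5) and 2354 ± 289 (SD, n = 4), a log2 change of -0.13 ± 0.16 (standard error; limma, adjusted p = 0.807). The 95% interval ran from -0.48 to 0.22, or from 0.717 to 1.17 times the Rragc+/+ level. Leaving out replicate 1 of either genotype gave a log2 change of -0.20 for Cybb. Leaving out Rragc+/+ replicate 2 gave -0.07, as did leaving out replicate 4 of RragcS74N/+.

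Cyba, the subunit that stabilizes gp91phox and docks p47phox, ranged from 793 to 1128 normalized counts in Rragc+/+ and from 682 to 1170.4 in RragcS74N/+. RragcS74N/+ replicate 1 was the lowest and replicate 3 the highest of all 9 libraries, so the mutant range enclosed the Rragc+/+ range. The log2 change was -0.07 with a 95% interval from -0.48 to 0.33 (limma, adjusted p = 0.902). Without RragcS74N/+ replicate 1 it was 0.07, and without replicate 3 of that genotype -0.19. Cybc1, the chaperone of this pair, gave 240.8 ± 42.3 (SD, n = 5) and 239 ± 3.58 normalized counts (SD, n = 4), and its log2 change was 0.01, with a 95% interval from -0.34 to 0.35 (limma, adjusted p = 0.994). The 4 RragcS74N/+ libraries ran from 235 to 244, a coefficient of variation of 1.50%, whereas counting error alone averages 6.00% at these read numbers. The mutant libraries were thus closer to each other than the counting error of single libraries. This was the smallest spread of any member in either genotype, and in Rragc+/+ that of Cybc1 was 17.6%. Whether such closeness exceeds chance was not tested.

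**Figure D1:**
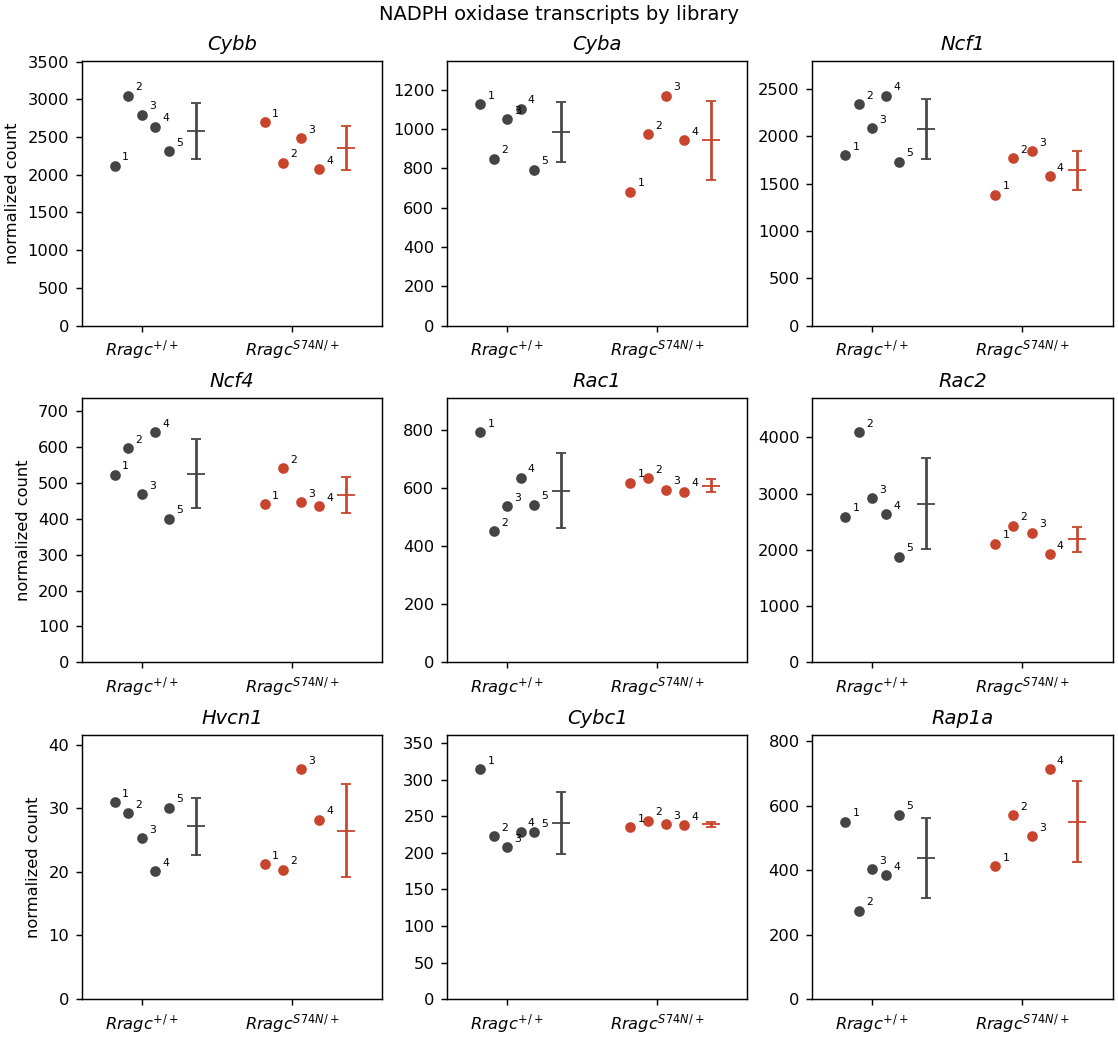
Normalized count (vertical axes, from 0) of each of the 9 members in each library, with the replicate number beside the point and the mean ± SD to the right of each genotype. The genotypes overlap in every panel, and Ncf1 and Rac2 have lower means and Rap1a a higher mean in RragcS74N/+.

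Among the cytosolic subunits Ncf1 had the smallest p-value of all members. This gene encodes p47phox, the organizer that is phosphorylated on stimulation and carries the other cytosolic subunits to the membrane. It measured 1801, 2340.5, 2085, 2432 and 1734 normalized counts in Rragc+/+ replicates 1 to 5, and 1382, 1767, 1844 and 1579 in RragcS74N/+ replicates 1 to 4. The mutant libraries filled the lower part of the scale, with 2 of the 4 below the lowest Rragc+/+ library and none above 1844. The means were 2078 ± 312 (SD, n = 5) and 1643 ± 206 (SD, n = 4), a log2 change of -0.33 ± 0.17 (standard error; limma, adjusted p = 0.713). The 95% interval, -0.69 to 0.02, spanned 0.620 to 1.01 times the Rragc+/+ level. Its p-value had rank 498 among 6673 genes, so many genes of the table had smaller ones.

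Ncf4, which encodes p40phox, the subunit that binds phosphatidylinositol 3-phosphate on phagosomes, gave 526 ± 96.8 (SD, n = 5) and 466 ± 50.7 normalized counts (SD, n = 4). Its log2 change was -0.16, with a 95% interval from -0.53 to 0.21 (limma, adjusted p = 0.782). It was -0.08 without Rragc+/+ replicate 4 and -0.25 without Rragc+/+ replicate 5. The RragcS74N/+ libraries, from 435 to 542, lay wholly inside the Rragc+/+ range of 400.04 to 641.

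The Rac GTPases, which complete the active complex, had estimates of opposite sign, neither beyond the spread of the libraries. Rac2, the isoform restricted to blood cells, measured 2589, 4089.7, 2915, 2629 and 1881 normalized counts in Rragc+/+ replicates 1 to 5. It measured 2108, 2426, 2302 and 1919 in RragcS74N/+ replicates 1 to 4. All mutant values lay between Rragc+/+ replicate 5, the lowest library, and replicate 1, and Rragc+/+ replicate 2 stood far above the rest. The log2 change was -0.33 ± 0.20 (standard error; limma, adjusted p = 0.713; 95% interval -0.76 to 0.11), and without Rragc+/+ replicate 2 it was -0.18. Rac1, the widely expressed isoform, ranged from 449.9 to 791 normalized counts in Rragc+/+ and from 586 to 633 in RragcS74N/+. Its log2 change of 0.07 had a 95% interval from -0.31 to 0.44 (limma, adjusted p = 0.907) and became -0.02 without Rragc+/+ replicate 2 and 0.18 without Rragc+/+ replicate 1.

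Rap1a had the highest log2 change of the 9, and it too did not pass the test. It measured 549.9, 275, 403, 385 and 571 normalized counts in Rragc+/+ replicates 1 to 5, and 413, 570.3, 506 and 714 in RragcS74N/+ replicates 1 to 4. RragcS74N/+ replicate 4 was the highest and Rragc+/+ replicate 2 the lowest library, and the other 7 were mixed. The log2 change was 0.36 ± 0.23 (standard error; limma, adjusted p = 0.714; 95% interval -0.14 to 0.85), or 0.20 without Rragc+/+ replicate 2 and 0.22 without RragcS74N/+ replicate 4. A processed pseudogene of Rap1a, Rap1a-ps2, is annotated in GENCODE M21 and is not a row of the table, and how reads shared with it were counted is uncertain. Hvcn1, the voltage-gated proton channel, was the scarcest member, with 20 to 48 reads in a library, and ranged from 20.1 to 31.0 and from 20.3 to 36.2 normalized counts. Counting error alone averages 18.4% there, so its log2 change of -0.05, with a 95% interval from -0.56 to 0.45 (limma, adjusted p = 0.949), is weakly bounded.

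**Figure D2:**
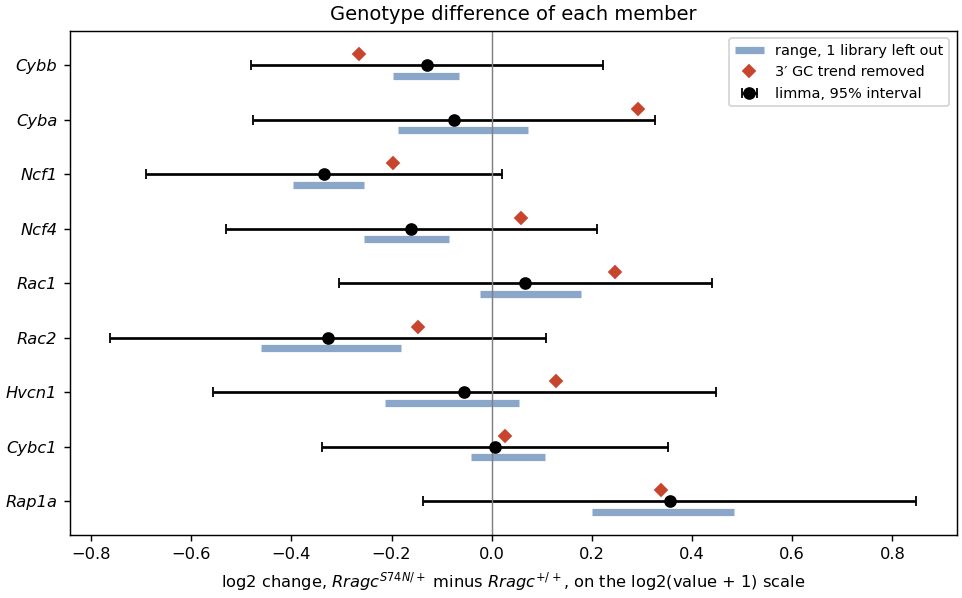
Log2 change of each member (RragcS74N/+ minus Rragc+/+, on the log2(value + 1) scale). Black points and bars are limma estimates with 95% intervals, blue bars the range when each library in turn is left out, and red diamonds the estimate once the 3′ GC trend of every library is removed. Every 95% interval holds 0, and the diamond lies on the other side of 0 from the black point for Cyba, Ncf4 and Hvcn1.

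The relation of read number to base composition differed between libraries. GC content was taken over the last 500 nucleotides of each gene's longest protein-coding transcript, or of its longest transcript where none was protein-coding. Each log2 value was taken as its deviation from the gene's mean over the 9 libraries. The slope of these deviations per 10 percentage points of GC was computed per library, so it is relative to the other libraries. It ran from -0.11 to 0.31 in Rragc+/+, highest in replicate 2, and from -0.21 to -0.01 in RragcS74N/+, lowest in replicate 1. All slopes in RragcS74N/+ were below 0, so removing the trend can also remove a genotype difference that follows GC content. The 3′ end of Cyba, at 58.8% GC, exceeded that of 98.2% of tested genes, while that of Cybb had 35.2% and exceeded 17.2%. With each library's trend removed, the log2 change was 0.29 for Cyba, -0.26 for Cybb, -0.20 for Ncf1, 0.06 for Ncf4, -0.15 for Rac2, 0.25 for Rac1, 0.13 for Hvcn1 and 0.34 for Rap1a. The median of the 9 then became 0.06, with 3 below 0, beside a median of 0.01 over all genes in that fit. After this correction 0 of the 9 passed the adjusted threshold in limma. The sign of the members' median thus turned with this correction.

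Proportions between partners were compared next, since a ratio inside a library does not depend on how libraries are scaled. It still depends on a library's 3′ GC trend where partners differ in GC content, and no ratio was computed with that trend removed. Rac2 and Rac1 had the same 3′ GC content, 51.6%. With the trend removed, the log2 change was 0.29 for Cyba and -0.26 for Cybb, as given above. Of 4 ratios, 0 differed between genotypes (two-sided exact permutation tests over 126 splits, adjusted over the 4, smallest possible p = 0.00794). Rac2 was read 3.27, 9.09, 5.44, 4.14 and 3.47 times as often as Rac1 in Rragc+/+ replicates 1 to 5, and 3.41, 3.83, 3.87 and 3.27 times in RragcS74N/+ replicates 1 to 4. The wide spread belonged to Rragc+/+, and the 4 mutant libraries gathered at its low end. The log2 ratio was 2.24 ± 0.60 (SD, n = 5) and 1.84 ± 0.12 (SD, n = 4), a difference of -0.39 (exact permutation test, p = 0.270, adjusted p = 0.540), or -0.16 without Rragc+/+ replicate 2.

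The log2 ratio of Ncf1 to Ncf4, both cytosolic subunits, was 1.99 ± 0.15 (SD, n = 5) and 1.81 ± 0.18 (SD, n = 4), a difference of -0.17 (exact permutation test, p = 0.151, adjusted p = 0.540). That of Cyba to Cybb differed by 0.05 (exact permutation test, p = 0.841, adjusted p = 0.841), and 3 of the 4 mutant libraries gave 0.451 to 0.471 Cyba reads per Cybb read while replicate 1 gave 0.253. In Rragc+/+ this proportion ran from 0.279 to 0.532. That of Cybc1 to Cybb differed by 0.14 (exact permutation test, p = 0.579, adjusted p = 0.772), from 0.05 without Rragc+/+ replicate 2 to 0.31 without Rragc+/+ replicate 1. Each of these pairs overlapped between genotypes.

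**Figure D3:**
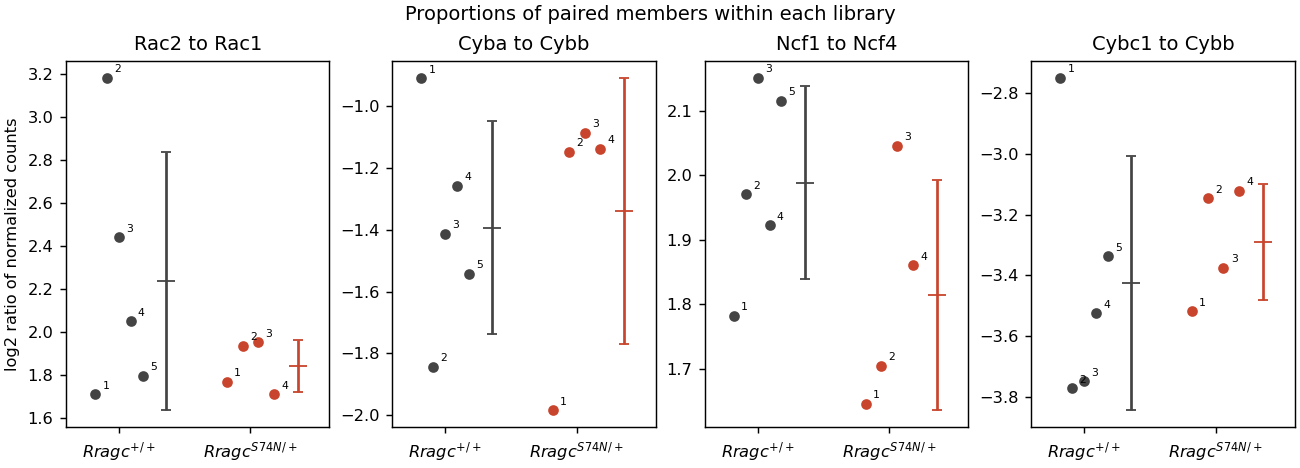
Log2 ratio of the normalized counts of 2 members within each library (vertical axes, each with its own range), with the replicate number beside the point and the mean ± SD to the right of each genotype. Rac2 to Rac1 spreads from 1.71 to 3.18 in Rragc+/+ and from 1.71 to 1.95 in RragcS74N/+.

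How the members varied among themselves was examined over all 36 pairs, with log2(value + 1) in the 9 libraries. One pair passed the correction, Cybb and Rap1a, which ran in opposite directions (Pearson r = -0.94, exact permutation test over 362880 pairings, p = 0.00013, adjusted p = 0.0047; Spearman rho = -0.88, exact permutation test, p = 0.0031, adjusted p = 0.0969). The rank correlation did not pass after adjustment. How often pairs of other genes correlate as strongly was not computed, so the relation cannot be called particular to these members. Libraries with the least Cybb, RragcS74N/+ replicate 4, Rragc+/+ replicate 1 and RragcS74N/+ replicate 2, were among the 4 with the most Rap1a, and Rragc+/+ replicate 2 had the most Cybb and the least Rap1a. Without the 2 libraries farthest from the Cybb median r was -0.91, without Rragc+/+ replicate 2 it was -0.92, with each genotype centred on its mean -0.94, and with the 3′ GC trend removed -0.95.

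The other pairs did not pass. The next strongest, Rac2 and Rap1a, also ran in opposite directions, with r of -0.82 and rho of -0.82 (exact permutation tests, adjusted p = 0.140 and 0.0969). Its r was -0.59 without the 2 libraries farthest from the Rac2 median, -0.61 without Rragc+/+ replicate 2 and -0.82 with the 3′ GC trend removed. Among Ncf1, Ncf4 and Rac2 r was 0.75 for Ncf1 and Rac2, 0.74 for Ncf1 and Ncf4 and 0.72 for Ncf4 and Rac2 (exact permutation tests, adjusted p = 0.140 for each). Spearman rho for these pairs was 0.83, 0.78 and 0.85 (exact permutation tests, adjusted p = 0.0969, 0.124 and 0.0969). Without the 2 libraries farthest from the median of the first gene, r was 0.94, 0.62 and 0.69. With the 3′ GC trend removed these 3 r values became 0.36, 0.19 and 0.01. Rac1 and Cybc1 had r of 0.81 and rho of 0.77 (exact permutation tests, adjusted p = 0.140 and 0.128), and r was 0.68 without the 2 libraries farthest from the Rac1 median. Cybb and Cyba, the subunits of 1 flavocytochrome, had r of -0.23 and rho of -0.22 (exact permutation tests, adjusted p = 0.787 and 0.736), with r of -0.16 without the 2 farthest libraries. With the GC trend removed r was -0.78.

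**Figure D4:**
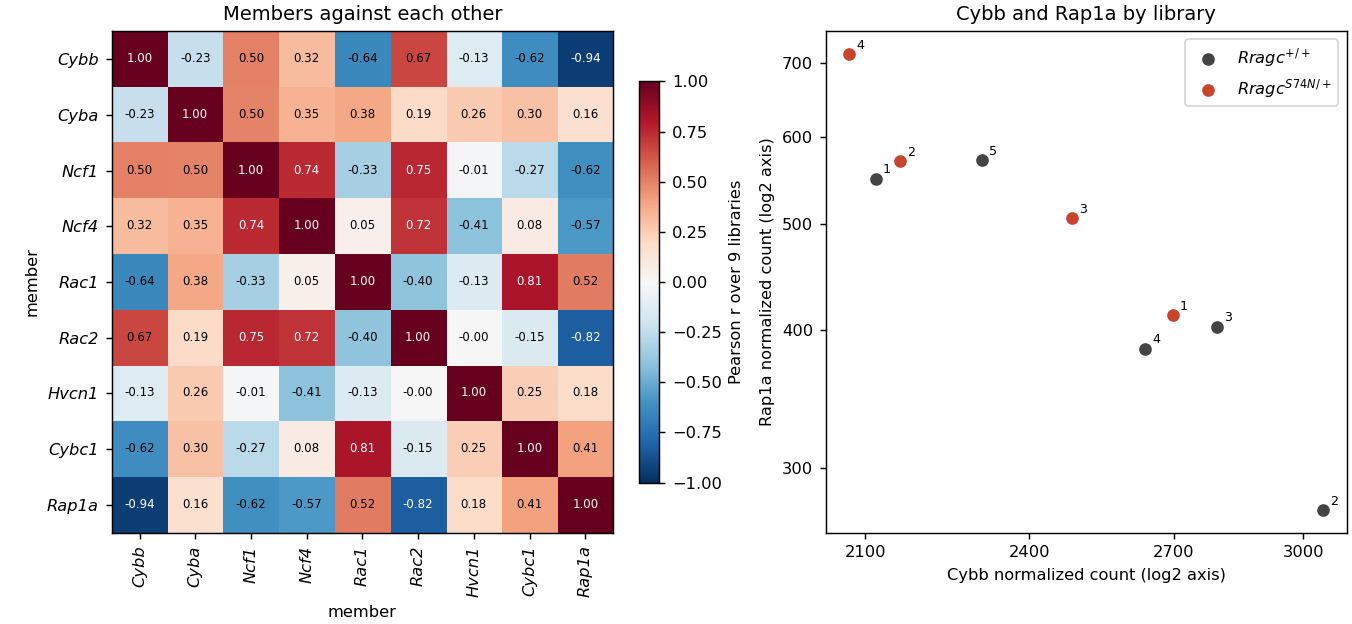
Left, Pearson r over the 9 libraries for every pair of members on the log2(value + 1) scale, from blue (-1) to red (1). Right, Rap1a against Cybb normalized counts on log2 axes, 1 point per library with its replicate number, where Rap1a falls from 714 to 275 as Cybb goes from 2073 to 3049.

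The spread of most members was small among the tested genes, many of which had lower counts. No comparison with genes of like abundance was made, so a small spread is not shown to be a trait of the members. Residual standard deviation in limma was lower for only 5.86% of tested genes than for Cybc1, for 9.19% than for Cybb and for 10.9% than for Ncf1. Rap1a was the most variable member, with 58.5% of genes below it. For Cybb, Ncf1 and Rac2 counting error averaged 2.30% or less, against coefficients of variation of 10.2% to 28.5% between libraries, so counting error was the smaller part of their spread. The 9 members took 0.612% to 0.851% of recovered reads in Rragc+/+ libraries and 0.563% to 0.766% in RragcS74N/+ libraries.

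Among the other genes, those whose centred log2 values lay closest to Cybb were Cast, Ywhab and Asxl1, with root mean square differences of 0.07, 0.08 and 0.09 over the 9 libraries, against a median of 0.33 over 3467 genes. Cast encodes the calpain inhibitor calpastatin, Ywhab a 14-3-3 protein and Asxl1 a chromatin regulator. Closest to Cyba were Cdk2ap2, Ltf and Oaz1, at 0.10, 0.11 and 0.11 against a median of 0.39. Ltf encodes lactoferrin, a protein of the secondary granules, whose membrane also stores flavocytochrome b558 in resting neutrophils. Ltf measured 1906 normalized counts in RragcS74N/+ replicate 1 and 3348 in replicate 3, the libraries with the least and the most Cyba of that genotype. Cdk2ap2 measured 465 and 743 in the same libraries. These genes were picked for values close to those of Cyba, so such a match follows from the choice. A link to the granules was not tested.

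Genes around the oxidase were compared through 5 lists, none with a gene past the adjusted threshold in limma. Of 31 genes tested that signal to the complex, such as protein kinase C, PI3Kγ and Fc receptors, 16 were lower and 15 higher, 0 had an unadjusted p-value under 0.05 and the median log2 change was -0.03. The smallest p-values were those of Arhgdia, which encodes a RhoGDI that holds Rac in the cytosol, Plcg2 and Pik3r5, with log2 changes of -0.44, -0.32 and 0.39. Of 10 genes that supply NADPH, 5 were lower and 5 higher, with 0 at an unadjusted p-value under 0.05 and a median of -0.03. Pgls and Tkt, of the pentose phosphate pathway, had log2 changes of -0.67 and -0.43 and Idh1, a cytosolic NADPH source, 0.48. In Tkt, Rragc+/+ replicate 2 stood at 1779.6 normalized counts and the other 8 libraries at 582 to 1132.

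Of 18 tested genes that handle superoxide and peroxide, 12 were lower and 6 higher, with a median of -0.10. Of these, 3 had an unadjusted p-value under 0.05, all lower (Hmox1, Keap1 and Sod1), and 1, Prdx6, did not overlap between genotypes. Of all genes 3.81% were lower at that p-value and 1.69% did not overlap. Hmox1, heme oxygenase 1, had means of 172 ± 104 (SD, n = 5) and 82.8 ± 23.7 normalized counts (SD, n = 4), a log2 change of -0.91. Sod1, the cytosolic superoxide dismutase, had a log2 change of -0.47, and Keap1, which restrains the antioxidant factor Nrf2, -0.55. Prdx6, a peroxiredoxin that also aids oxidase activity, had 348 ± 45.0 (SD, n = 5) and 281 ± 20.04 normalized counts (SD, n = 4), a log2 change of -0.30, and was singled out after its values were seen. Of 10 transcription factors of phagocyte genes, 6 were lower and 4 higher, with a median of -0.08. Cebpb, a factor of emergency granulopoiesis, was the 1 of these 10 with an unadjusted p-value under 0.05, with 363 ± 52.02 (SD, n = 5) and 251 ± 54.02 normalized counts (SD, n = 4) and a log2 change of -0.55, while that of Cebpe was -0.52 and that of Cebpa -0.38. For every gene named in these lists so far the limma adjusted p was 0.713.

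Of 11 further genes of the NADPH oxidase family and its GTPases, 2 were in the table. Rhog, a Rac-related GTPase, had a log2 change of -0.54 and an unadjusted p-value under 0.05, and Rap1b, the close relative of Rap1a, had 0.07 (limma, adjusted p = 0.713 for Rhog and 0.882 for Rap1b). Rap1b had 1579 ± 130.2 (SD, n = 5) and 1657 ± 127 normalized counts (SD, n = 4). Catalytic relatives, namely Nox1, Nox3, Nox4, Duox1 and Duox2 were not listed.

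**Figure D5:**
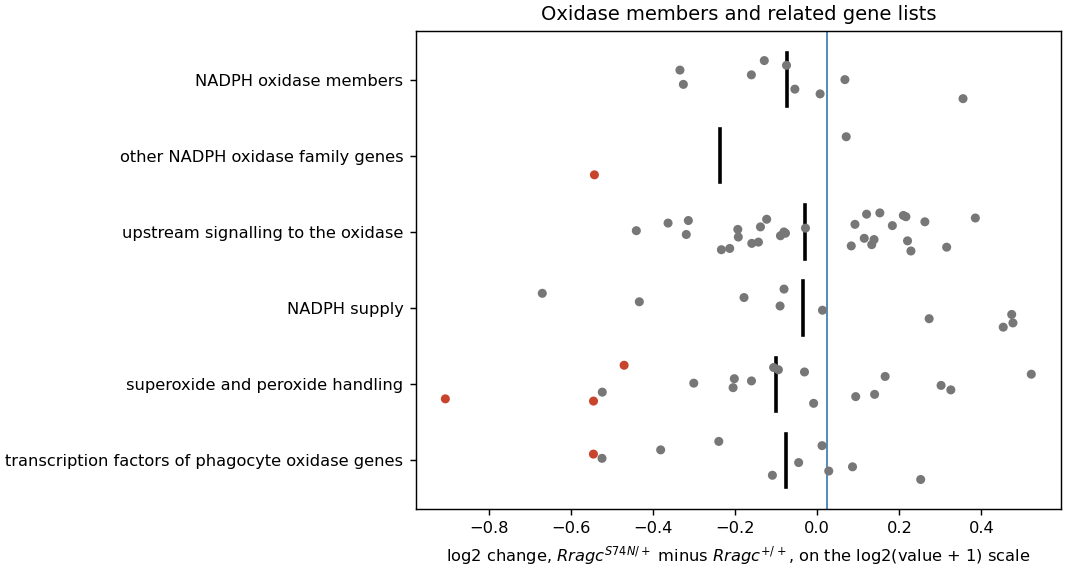
Log2 change (RragcS74N/+ minus Rragc+/+, log2(value + 1) scale) of each tested gene in the 9 members and the 5 related lists, with 1 point per gene, red where the unadjusted limma p-value was under 0.05 and gray otherwise. Black bars are list medians and the blue line the median of all genes, and the medians run from -0.24 to -0.03.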

How the data were processed

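The authors state TopHat2 alignment of the 3′-end reads (GRCm39) and stranded gene counting by HTSeq on GENCODE vM26. The deposited values are a signal, gene counts that the authors divided by 1 size factor per library. Use of the molecular identifiers and the filter on genes are not given in the sources used here. If reads were not collapsed, counting error understates the noise. All values in each column were whole multiples of its smallest value (100% within 1e-06), and these multiples were taken as reads. Fewer RragcS74N/+ libraries were analysed here than the mice the study describes. Libraries were grouped by the genotype in GEO's labels. Their titles are codes of unstated meaning, and no animal, batch or replicate number is named, so p-values measure only the spread between libraries. Replicates were numbered in accession order.

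limma was run on log2(value + 1) of genes whose mean over libraries reached 10, in version 3.58.1 (R 4.3.3, trended moderation, genotype as the only term, Benjamini-Hochberg over all genes, threshold 0.05). A change on this scale understates that of low genes. Ratios and correlations used exact permutation tests in Python 3.11.15. edgeR 4.0.16 and DESeq2 1.42.0 on the reads served as alternatives. DESeq2 left the adjusted p-value of 8 genes as NA. The limma script was tested on simulated data. GC content came from GENCODE M21 transcripts (GRCm38, matched by symbol for 98.2% of tested genes), and its correction was added after the data were seen. Promoter sequences came from RefSeq (GRCm38.p6). Members and lists were chosen with earlier results of these data known. Named genes are the members, the 3 genes with the smallest p-value of each list, the sorting markers, and the 3 genes of a mean of at least 50 nearest to Cybb and to Cyba. Some genes of the related lists are not reported here.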

Additional observations from a re-analysis of the deposited data

Results flagged for a closer look

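Of 60 sets of values within 1 genotype, 3 held a library whose gap to the next was large for the range, the 3 (1 in 20) that chance gives on average. Ncf4 was high in RragcS74N/+ replicate 2, at 542 normalized counts against 447 in the next library, a gap of 0.889 of the range. Cybc1 was high in Rragc+/+ replicate 1, at 315 normalized counts against 229, a gap of 0.803. The log2 ratio of Cyba to Cybb was low in RragcS74N/+ replicate 1, at -1.98 against -1.15, a gap of 0.932.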

How the results depend on the processing

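No member passed the adjusted threshold in limma or under any of the 20 alternatives (pseudocounts, filters, rescaling, moderation, weights, edgeR, DESeq2, 3′ GC trend removed, each library left out), nor did any of the 6673 genes. Without adjustment, 388 of 6673 genes had a p-value under 0.05. With a mean of at least 50 it was 191 of 3475, with array weights 769 of 6673, and with the GC trend removed 256 of 6556. With a library left out it ran from 201 of 6648 (without Rragc+/+ replicate 2) to 907 of 6629 (without Rragc+/+ replicate 5). Of the members, 2 had an unadjusted limma p-value under 0.05 with array weights (Ncf1 and Rap1a), beside 769 of 6673 genes. Without Rragc+/+ replicate 5 it was 2 members (Ncf1 and Rac2), beside 907 of 6629 genes. Ncf1 also did so in limma without Rragc+/+ replicate 1, beside 641 of 6679 genes, and in DESeq2, beside 447 of 6673.

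Removal of the GC trend turned the log2 change of Cyba to 0.29, of Ncf4 to 0.059 and of Hvcn1 to 0.13, and array weights that of Hvcn1 to 0.039. That of Cybc1 was -0.0023 with equal totals, -0.0011 with TMM factors, -0.020 in edgeR and -0.0093 in DESeq2. With a library left out, the log2 change ran from -0.19 to 0.072 for Cyba, from -0.024 to 0.18 for Rac1, from -0.21 to 0.055 for Hvcn1, from -0.042 to 0.11 for Cybc1 and from -0.058 to 0.27 for the ratio of Cyba to Cybb. Cybb, Ncf1, Rac2 and Rap1a kept their direction throughout. The cause of these turns was not tested. No paired analysis was possible because libraries carry no number shared between genotypes in the labels. Hvcn1, with at most 48 reads in a library, is limited by depth.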
